A study of Mus musculus with 5 samples.

Results

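The p53 pathway genes described here are a list of 34 mouse genes, made up of Trp53, its regulators and its transcriptional targets. They were read in Neuro2A, a mouse neuroblastoma cell line, as every array probe set (a group of short DNA probes for 1 transcript) that the platform annotation assigned to exactly 1 symbol on the list. This rule found 60 of 45037 probe sets, for 31 of the 34 genes. The annotation used here paired no probe set with Trp53, Bax or Fdxr alone, so p53 itself is not analysed here. A further 7 genes had only dim probe sets, and 24 genes, with 45 probe sets, had a mean log2 signal over the 5 lines at or above the median of all probe sets, a signal of 40.5.

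p53 is a transcription factor that is kept at a low level by the ubiquitin ligase Mdm2 and its partner Mdm4. When DNA is damaged, or other stress acts, p53 builds up and switches on genes that halt the cell cycle, trigger cell death, repair DNA or adjust metabolism. Mdm2 is itself such a target, which closes a negative feedback loop, and a rise of Cdkn1a, Mdm2, Ccng1 and their like in parallel is the usual transcript readout of p53 activity.

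The study asked what KDM7, a demethylase of histone H3 lysine 9 and lysine 27 encoded by Kdm7a, does to gene expression. RNA of 5 Neuro2A lines was hybridised to 1 Affymetrix 3' array each. The knockdown group held 2 stable lines, KDM7 KD1 and KDM7 KD2, transfected with vector 1 and vector 2 against KDM7. The control group held 3 lines, namely the untransfected parental line, a line with the empty vector and a line with a vector against EGFP (EGFP KD). All lines share the Neuro2A background and standard culture, and no drug or damaging agent is named. Whether a stable line is 1 clone or a pool, and whether the lines were grown in parallel, is not in the labels, so p-values measure only the spread between these 5 arrays, which may be technical in part.

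The targeted gene was lower in the lines labelled as its knockdown. Kdm7a probe set 1456150_at had signals of 130 in KD1 and 136 in KD2, against 487, 611 and 665 in the parental, the empty vector and the EGFP KD line. Its log2 difference was -2.13 (SE 0.20, adjusted p = 0.0468 in limma). With cyclic loess, without limma's trend and robust options, and without the EGFP KD line or KD2, 0 of all probe sets passed, this one included. The 2 other probe sets of Kdm7a above the brightness level also had both knockdown lines below every control line, but did not pass, with -1.99 (adjusted p = 0.128 in limma) and -1.86 (0.869). Of 18 sympathoadrenal neuroblastoma markers 16 had a probe set and 15 were above the brightness level, the exception being Th, the tyrosine hydroxylase gene. Of these 15, 0 passed the test between knockdown and control lines, 6 had an unadjusted p under 0.05 (40%, against 4.96% of all probe sets), and both knockdown lines were below every control line for 5 (33.3%, against 10.2%), namely Gata3, Isl1, Tbx2, Chga and Elavl4, and above for 1 (6.67%, against 12.6%), Chgb. The median log2 difference of the 15 was -0.30, and its part in any result was not tested. Of the markers of other cells, 2 of 8 fibroblast, 1 of 5 glial and 1 of 7 blood and immune genes were above it. The summed signal of the glial list was 342 and 497 in the knockdown lines, against 173, 411 and 403 in the parental, the empty vector and the EGFP KD line, mostly from Erbb3, and its part was not tested either. A smaller number of such cells and less RNA per cell look alike in bulk RNA. The parental array stood somewhat apart, with correlations of 0.964 to 0.968 with the other arrays over log2 signals, while the other pairs lay between 0.976 and 0.983.

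Promoter sequences are shown for genes whose signals are described below, because p53 binds DNA at a pair of half-sites. For 26 of the 34 genes a RefSeq promoter window on GRCm38.p6 was at hand, 8 of them with more than 1 start. The 250 bases before each start were searched for the p53 half-site consensus, a pattern of 10 letters that is its own reverse complement, so that both strands are covered. At least 1 match stood before a start of 13 of the 26 genes, or 50%, against 8.2% of all 27025 genes with a window. Counted by window, the share was 37.1% of 35, against 7.13% of 32851. The list was chosen as p53 regulators and targets, so these shares describe that choice and are no result of the arrays. A pair of matches at most 13 bases apart stood before 1 of the 26 genes, Cdkn1a, against 0.0666% of all genes. Only exact matches were counted, so half-sites and pairs with any differing letter are missed. Cdkn1a, Mdm2 and Ccng1, whose probe sets were all highest in the empty vector line, and Ei24, which was below every control line in the knockdown lines, are shown 5′ to 3′ on the gene's own strand, with half-site matches in capitals.
Cdkn1a, chr17:29090729-29090978, plus strand: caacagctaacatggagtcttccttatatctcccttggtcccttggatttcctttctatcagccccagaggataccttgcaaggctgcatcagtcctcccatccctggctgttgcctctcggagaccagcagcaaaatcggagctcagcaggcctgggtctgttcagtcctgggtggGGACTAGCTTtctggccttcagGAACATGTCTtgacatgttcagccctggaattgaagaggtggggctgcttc
Mdm2, chr10:117710759-117711008, minus strand: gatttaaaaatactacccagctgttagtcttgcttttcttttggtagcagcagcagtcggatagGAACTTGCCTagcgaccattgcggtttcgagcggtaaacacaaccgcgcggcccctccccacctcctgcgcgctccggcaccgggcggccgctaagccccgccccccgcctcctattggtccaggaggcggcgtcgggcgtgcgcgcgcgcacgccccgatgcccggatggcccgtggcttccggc
Ccng1, chr11:40755287-40755536, minus strand: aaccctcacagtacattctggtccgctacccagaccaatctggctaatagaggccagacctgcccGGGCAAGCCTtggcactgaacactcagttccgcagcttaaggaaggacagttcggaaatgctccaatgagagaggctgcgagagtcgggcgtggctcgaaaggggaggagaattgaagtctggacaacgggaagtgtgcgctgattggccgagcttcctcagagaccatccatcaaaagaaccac
Ei24, chr9:36797335-36797584, minus strand: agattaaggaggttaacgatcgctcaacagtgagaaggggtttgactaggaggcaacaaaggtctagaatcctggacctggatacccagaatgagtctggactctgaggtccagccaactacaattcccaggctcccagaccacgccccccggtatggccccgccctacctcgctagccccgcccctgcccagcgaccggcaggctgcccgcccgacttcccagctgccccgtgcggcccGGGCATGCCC
The Cdkn1a window holds the exact matches GGACTAGCTT and GAACATGTCT with 12 bases between them, and it belongs to the more upstream of the 2 annotated starts. In it, tgacatgttc directly follows GAACATGTCT with no base between, differs from the consensus by a single letter and is therefore not marked. In the Ccng1 window, agacctgccc directly precedes the marked match and also differs by a single letter. The window of the downstream start, at chr17:29093519-29093768, has 0 matches. Mdm2 is known to have a p53-dependent promoter in its first intron, which lies outside the window shown. All probe sets of Btg2, Phlda3 and Pidd1 were highest in the empty vector line too. These genes have 0 matches in their windows and are not shown, while the window of Ckap2, likewise highest there, has 1. The genes shown all hold a match, and a link between matches and the line with the highest signal was not tested. No window was used for Zmat3. A match is a stretch of letters and was not tested for binding.

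None of the 24 genes passed the test between the 2 knockdown and the 3 control lines. In limma 0 of the 24 genes, and 0 of their 45 probe sets, had an adjusted p under 0.05, against 2 of all 22519 probe sets tested, or 0.00888%. At an unadjusted p under 0.05 the count was 0 of 24 as well, against 4.96% of all probe sets, and it was 0 in limma without its trend and robust options. By its brightest probe set, each gene had a log2 difference between -0.28 (Xpc) and 0.31 (Pidd1), where log2 differences are knockdown minus control. There were 12 genes with a value above 0 and 12 with a value below, against 54.8% above over all probe sets. The median was 0.02, against 0.03 over all probe sets, and it was -0.015 with quantile normalization, against 0.0094. These sizes can be bounded for the brightest probe sets only, and not for dimmer ones such as Polk 1419501_at (0.70, SE 0.36) and Mdm4 1453982_at (0.55, SE 0.44). On simulated data the fit called more unchanged probe sets than intended, so its intervals may be too narrow. By the brightest probe set, the 95% interval of the difference lay within 2-fold in both directions for 23 of the 24 genes. The exception was the dim Trp53inp1, with an interval of -1.09 to 0.75. Leaving out either knockdown line reduced that count to 19 of 24.

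**Figure D1:**
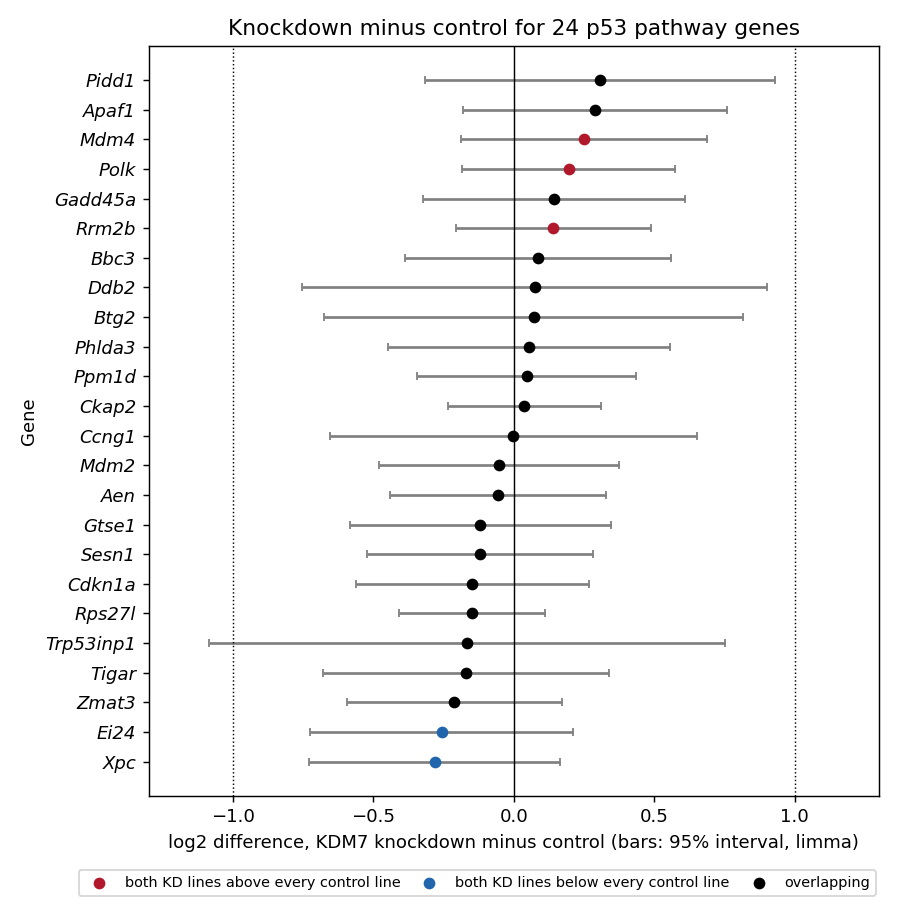
Log2 difference, KDM7 knockdown minus control, for the 24 genes (x axis), by each gene's brightest probe set, with 95% intervals from limma as bars and dotted lines at 2-fold. All intervals span 0, the points lie between -0.28 and 0.31, and the interval of Trp53inp1 alone reaches past 2-fold.

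The knockdown lines lay between the lowest and the highest control line for 13 of the 24 genes, or 54.2%, against 38.8% of all probe sets. Both knockdown lines were above every control line for 3 genes, Mdm4, Polk and Rrm2b, or 12.5%, against 12.6% of all probe sets. Both were below every control line for 2 genes, Ei24 and Xpc, or 8.33%, against 10.2%. Of the 45 probe sets of these genes, 4 were above every control line (8.89%) and 4 below (8.89%). These shares are near those of the whole array. They also move with the choice of controls, since 8 genes were above without the empty vector line (21.7% of all probe sets) and 7 were below without the parental line (17.7%). With median centring of the arrays, which moved all probe sets by -0.11, 0 genes were above (6.02% of all probe sets) and 4 below (17.7%).

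**Figure D2:**
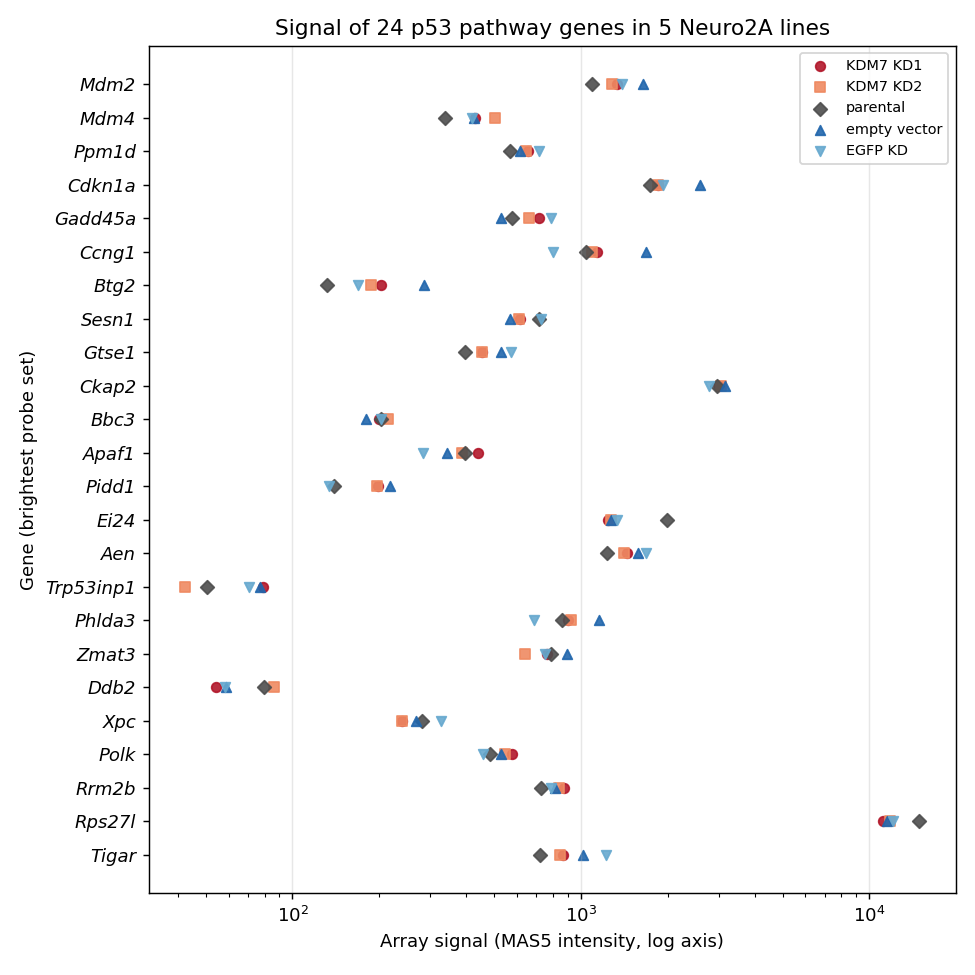
Array signal (x axis, MAS5 intensity on a log axis) of the 24 genes in KDM7 KD1, KDM7 KD2 and the parental, empty vector and EGFP KD lines, 1 array each. The knockdown lines lie close together for most genes, and the empty vector line stands to the right for Cdkn1a, Ccng1, Btg2 and Phlda3.

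Among the regulators of p53, Mdm2 (1423605_a_at) had signals of 1332 in KD1 and 1281 in KD2, against 1096, 1639.8 and 1385 in the parental, the empty vector and the EGFP KD line. The knockdown lines lay inside the control range. The log2 difference was -0.05 (SE 0.19, adjusted p = 0.979 in limma), and a second probe set of Mdm2 had -0.24. Mdm4, which binds p53 and blocks its activation domain, had 430.0 and 504 in KD1 and KD2, against 337, 424 and 419 in the parental, the empty vector and the EGFP KD line. KD1 exceeded the highest control by a small margin, and the log2 difference of 0.25 (SE 0.19) did not pass, with an adjusted p of 0.919 in limma. The other kept probe sets of Mdm4 had 0.08 and 0.55, and in neither did the groups separate. Ppm1d, a phosphatase that switches off p53 signalling and is itself a p53 target, had 655 and 642 in the knockdown lines, against 566, 613 and 716 in the same controls. Its probe sets differed in sign, at 0.05 and -0.19. By the second, 1449092_at, both knockdown lines were below every control line, with 493 and 445, against 508, 537 and 558 in the same controls.

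Of the genes of cell cycle and growth arrest, 7 of 8 were measured above the brightness level. Both knockdown lines stood beyond the controls for 0 of them, while of all probe sets 12.6% were above every control line and 10.2% below. Cdkn1a, which encodes the cyclin-dependent kinase inhibitor p21, had 1848 in KD1 and 1851 in KD2, against 1731, 2583 and 1924 in the parental, the empty vector and the EGFP KD line. By this brighter probe set, 1424638_at, the knockdown lines were nearly equal and sat between the parental and EGFP KD lines, while the empty vector line was highest. The knockdown lines averaged 1850 ± 2.04 (SD, n = 2) and the control lines 2079 ± 447 (SD, n = 3). The log2 difference was -0.15 (SE 0.18, 95% interval -0.56 to 0.27, adjusted p = 0.939 in limma), and the second probe set gave -0.18. Without the empty vector line the first was 0.02. By the second probe set, 1421679_a_at, KD1 had 1187 and KD2 1001. The parental, the empty vector and the EGFP KD line had 1121, 1456 and 1150 there, so KD1 lay within the control range and KD2 below it.

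Ccng1, a cyclin G gene and p53 target, had 1134 and 1096 in KD1 and KD2, against 1037, 1681 and 797 in the parental, the empty vector and the EGFP KD line. The spread of the controls, 2.11-fold, was far wider than the distance between the knockdown lines, and the log2 difference was -0.0023 (SE 0.28). The other 2 probe sets of Ccng1 had 0.17 and 0.18. Btg2, an antiproliferative gene, had 203 and 187 in the knockdown lines, against 132, 286 and 169 in the same controls. It had the widest control range of the 24 genes, 2.16-fold. Its probe sets gave log2 differences of 0.07 (SE 0.33) and -0.14.

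The remaining arrest genes above the brightness level had narrower control ranges than Ccng1 and Btg2. Gadd45a, a damage-induced growth arrest gene, had 714 and 660.1 in KD1 and KD2, against 576, 529 and 787 in the parental, the empty vector and the EGFP KD line. Sesn1, a sestrin that restrains mTORC1 signalling, had 616 and 611 in the knockdown lines, against 718, 569 and 729 in the controls. In contrast to Cdkn1a, both had their lowest signal in the empty vector line. Gtse1, which encodes a microtubule protein that can restrain p53, had 454 and 453 in the knockdown lines, against 395, 530.3 and 571 in the controls. Ckap2, a spindle protein gene, had 3013 and 3068, against 2954, 3161 and 2789. Its 95% interval, -0.24 to 0.31, was the narrowest of the 24 genes after that of Rps27l. Plk2, a polo-like kinase gene, had only dim probe sets, with signals of 2.05 to 31.3 in the knockdown lines and 2.39 to 18.1 in the controls.

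Of the genes of apoptosis and cell death 8 of 15 were above the brightness level. The largest positive log2 difference was that of Pidd1, an adaptor that activates caspase-2, with 198 and 197 in KD1 and KD2, against 139, 217 and 134 in the parental, the empty vector and the EGFP KD line. Both knockdown lines exceeded the parental and EGFP KD lines but not the empty vector line. The log2 difference of 0.31 (SE 0.27, adjusted p = 0.923 in limma) was 0.53 without the empty vector line. Apaf1, the scaffold of the apoptosome, had 441 and 388 in the knockdown lines, against 398, 343 and 284 in the controls, a log2 difference of 0.29 (SE 0.21) with overlap through the parental line. Bbc3, which encodes the BH3-only protein PUMA, had 199.7 and 214, against 203, 179 and 203. Its values were close together in all 5 lines (log2 difference 0.09, SE 0.21).

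Ei24, an endoplasmic reticulum protein gene induced by p53, had 1243 in KD1 and 1268 in KD2, against 1983, 1272 and 1338 in the parental, the empty vector and the EGFP KD line. KD2 lay just under the empty vector line, and the distance came mostly from the parental line. The log2 difference of -0.26 (SE 0.20, adjusted p = 0.919 in limma) was -0.06 without the parental line. Zmat3, an RNA-binding protein gene, had 763 and 642 in the knockdown lines, against 788, 897 and 752 in the controls, a log2 difference of -0.21 (SE 0.17). Here KD1 lay within the control range and KD2 below it. Phlda3, an inhibitor of Akt, had 903 and 924, against 863, 1151 and 685. Aen, an apoptosis-enhancing nuclease gene, had 1445 and 1406, against 1232, 1572 and 1684. For both the knockdown lines lay within the controls.

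Trp53inp1, a stress-induced nuclear and autophagy protein gene, had 79.2 in KD1 and 42.5 in KD2, against 50.6, 77.4 and 70.6 in the parental, the empty vector and the EGFP KD line. These signals are near the brightness level, and the sign of its log2 difference of -0.17 (SE 0.40) turned to 0.28 without KD2. The other cell death genes on the array, Pmaip1 (Noxa), Perp, Fas, Tnfrsf10b, Eda2r and Dram1, had only dim probe sets. Pmaip1 had 5.97 and 0.649 in KD1 and KD2, against 0.916, 1.85 and 11.5 in the parental, the empty vector and the EGFP KD line. Fas, a death receptor, had 3.56 and 3.38, against 18.1, 2.12 and 0.939. Perp, a desmosomal protein gene, had 5.41 and 2.44, against 4.63, 5.22 and 15.5. All signals of these 3 genes were far under the brightness level. Dram1, an autophagy gene, had 3.08 and 3.28, against 1.55, 1.36 and 1.98, and Eda2r, a receptor of ectodysplasin, had 33.2 and 7.56, against 3.57, 1.33 and 25.9. The highest signal among these 6 genes was 47.8 for Tnfrsf10b 1421296_at, another death receptor, in KD1, with 1.56 in KD2. Such values were not shown to be above background, and no difference is drawn from them.

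The genes grouped here under DNA repair and nucleotide supply, with the ribosomal protein-like Rps27l placed among them, were all above the brightness level. These 5 held 3 of the 5 genes whose groups did not overlap, which was not tested. Both knockdown lines were above every control line for 2, Polk and Rrm2b, and below for 1, Xpc. Over all probe sets the shares were 12.6% above and 10.2% below. Polk, a translesion DNA polymerase, had 576 and 544 in KD1 and KD2, against 483, 528 and 458 in the parental, the empty vector and the EGFP KD line. Its dimmer probe set 1419501_at had 104 and 147, against 51.6, 93.8 and 92.0. Both probe sets thus had both knockdown lines above every control line, with log2 differences of 0.20 (SE 0.17, adjusted p = 0.923 in limma) and 0.70 (SE 0.36, adjusted p = 0.916).

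Rrm2b, the p53-inducible subunit of ribonucleotide reductase, had 875 and 837 in KD1 and KD2, against 728, 815 and 788 in the parental, the empty vector and the EGFP KD line, and its 4 probe sets did not point one way. By 1433773_at the log2 difference was 0.14 (SE 0.15), while 1437222_x_at had -0.35 with both knockdown lines below every control line. Xpc, a damage sensor of nucleotide excision repair, had 239.7 and 240.2 in the knockdown lines, against 282, 269 and 327 in the controls. By the brightest probe set of each gene, it had the lowest unadjusted p of the 24 genes, 0.183 in limma. Its log2 difference was -0.28 (SE 0.19, adjusted p = 0.916 in limma). The unadjusted p in limma was lower for the dimmer probe sets Polk 1419501_at (0.088) and Rrm2b 1437222_x_at (0.176). Ddb2, the damage-binding partner of nucleotide excision repair, had 54.2 in KD1 and 86.6 in KD2, the span of all 5 lines, against 79.8, 59.0 and 58.5 in the controls. Rps27l, a ribosomal protein-like p53 target, had 11192 and 11767, against 14841, 11510.4 and 12043, and its parental signal was the highest by all 3 probe sets. Tigar, a fructose bisphosphatase that lowers glycolytic flux and the 1 metabolic gene measured, had 867 and 847, against 723, 1018 and 1220.0, a log2 difference of -0.17 (SE 0.22) that was -0.38 without the parental line and -0.00072 without the EGFP KD line. The other probe sets of Tigar had 0.12 and -0.22. Probe sets whose names end in _s_at or _x_at can bind related transcripts, which makes the values of Mdm4, Sesn1, Ddb2 and Rps27l, and of Rrm2b 1437222_x_at, uncertain in this respect.

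Each knockdown line was also set against the controls on its own. With 1 array for each line this comparison has little power, as Kdm7a 1456150_at itself did not pass in KD1 (adjusted p = 0.596 in limma) or in KD2 (0.314). Against the controls, 0 of the 24 genes passed in KD1 and 0 in KD2 in limma (0% and 0.00444% of all probe sets). At an unadjusted p under 0.05 there were 0 for KD1 (1.99% of all probe sets) and 0 for KD2 (2.77%). KD2 against KD1 gave 0 calls (0.00444% of all probe sets) and 0 at an unadjusted p under 0.05 (1.51%). By the brightest probe sets, the log2 differences of KD2 minus KD1 ran from -0.90 for Trp53inp1 to 0.68 for Ddb2, both near the brightness level. Their median was -0.02. A second probe set of Tigar, 1447934_at, was far above that level, with 451 in KD1 and 719 in KD2, a log2 difference of 0.67. Between single lines, 0 of the 24 genes were 2-fold apart between KD1 and EGFP KD (2.19% of all probe sets higher and 2% lower) or between KD2 and EGFP KD (2.29% and 2.22%). Above the EGFP KD line were 11 genes in KD1 (45.8%, against 48.4% of all probe sets) and 11 in KD2 (45.8%, against 49.2%), and below it 13 in KD1 (54.2%, against 51.6%) and 13 in KD2 (54.2%, against 50.8%). The EGFP KD line also carries a knockdown vector, with another target. These are separate lines with 1 array each, so the pairs can differ in more than the target.

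By the brightest probe sets, and among the single-line pairs compared, the steps of at least 2-fold lay within the control group. These pairs were empty vector minus parental, EGFP KD minus empty vector, and each knockdown line minus EGFP KD. Neither knockdown line was set against the parental line in this way. The dimmer Polk 1419501_at had 104 in KD1 and 147 in KD2, against 51.6 in the parental line. The highest of the 5 signals was in the empty vector line for 8 of 24 genes (33.3%), namely Mdm2, Cdkn1a, Ccng1, Btg2, Ckap2, Pidd1, Phlda3 and Zmat3, against 18.3% of all probe sets. It was in the EGFP KD line for 7 (29.2%, against 23.3%), in KD1 for 4 (16.7%, against 16.7%), in KD2 for 3 (12.5%, against 18.7%) and in the parental line for 2 (8.33%, against 23%). Over the 45 probe sets of these genes, 13 (28.9%) were highest in the empty vector line and 13 (28.9%) in the EGFP KD line. All kept probe sets of Mdm2, Cdkn1a, Ccng1 and Btg2 had their highest signal in the empty vector line. The lowest signal was in the parental line for 9 genes (37.5%, against 31.5% of all probe sets). This is a pattern of 1 array per line that was noticed in the values, it was not tested, and Gadd45a, Sesn1 and Bbc3 were lowest in the empty vector line. In the further lists of pathway genes described below, the empty vector line was highest for 6 of 36 regulators (16.7%), 10 of 43 other targets (23.3%) and 8 of 39 genes repressed through p21 (20.5%).

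**Figure D3:**
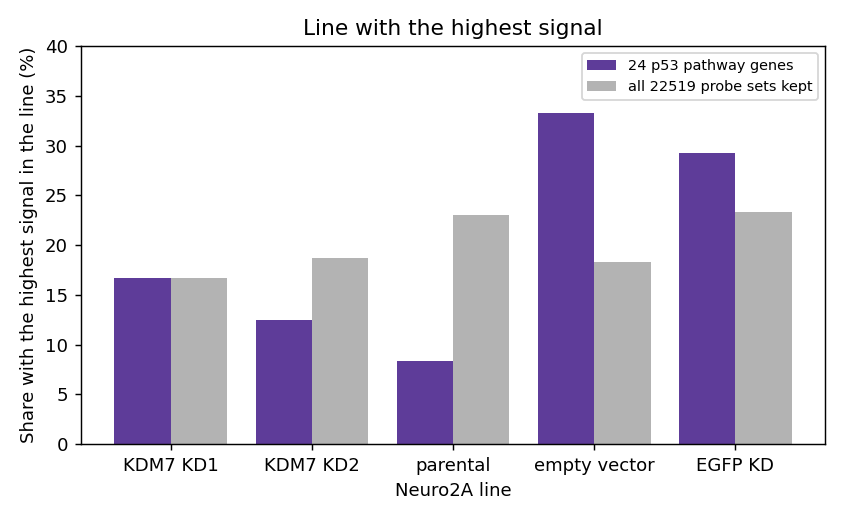
Share (y axis, percent) of the 24 genes, by their brightest probe set, and of all probe sets kept, that had their highest signal in each line (x axis). The share in the empty vector line is 33.3% of the genes and 18.3% of all probe sets, and in the parental line 8.33% and 23%.

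Empty vector minus parental, the median log2 difference of the 24 genes was 0.17, against 0.04 over all probe sets, with 16 genes above 0 (66.7%, against 54.6% of all probe sets). The step was at least 2-fold for 1 gene, Btg2, at 1.11 (3.87% of all probe sets), and at least 2-fold down for 0 (3.3%). EGFP KD minus empty vector, the median was -0.03, against 0.03 over all probe sets, with 10 genes above 0 (41.7%, against 53.4% of all probe sets) and 14 below (58.3%, against 46.6%). Ccng1 was the 1 gene at least 2-fold lower, at -1.08 (2.12% of all probe sets), and 0 were 2-fold higher (2.64%). The other probe sets of Ccng1 were closer in this pair. 1450016_at had 385 in the EGFP KD line, against 511 in the empty vector line, and 1450017_at had 196, against 271. These single-line values share the empty vector array and have no replicate.

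**Figure D4:**
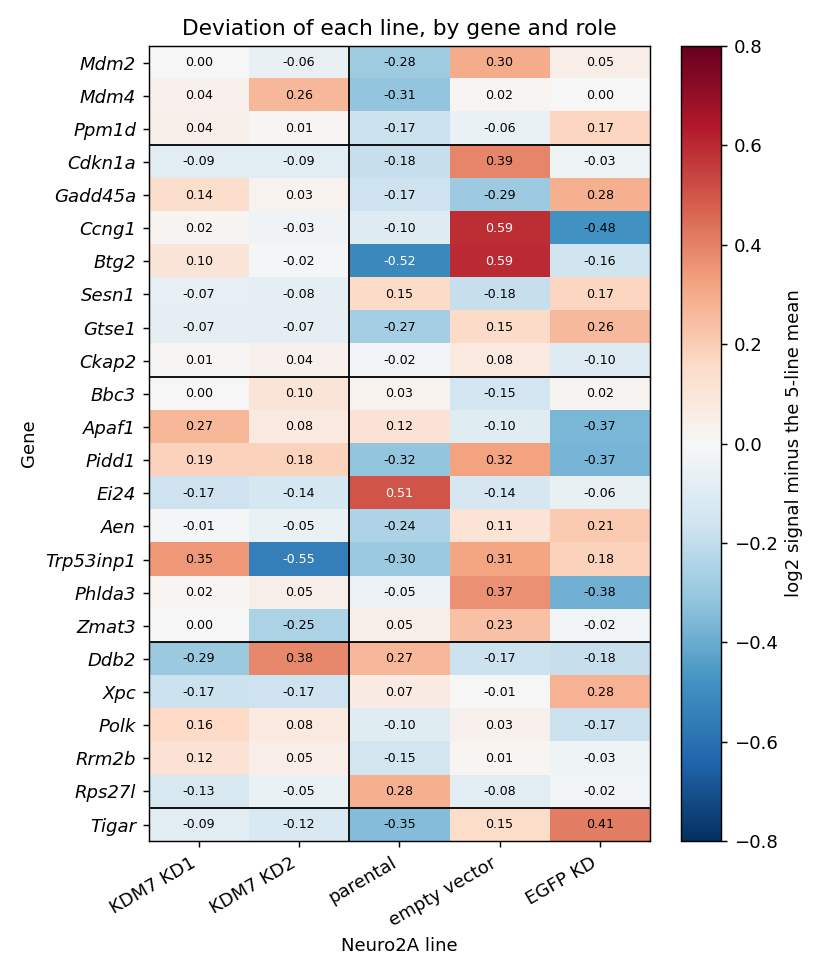
Log2 signal of each line minus the mean of the 5 lines (colour and printed value) for the 24 genes, grouped by role from regulators at the top to metabolism at the bottom, with the knockdown lines left of the controls. The knockdown columns are near 0 for most genes, and the strongest colours are 0.59 for Ccng1 and Btg2 in the empty vector line, -0.55 for Trp53inp1 in KDM7 KD2 and -0.52 for Btg2 in the parental line.

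Further genes of the pathway, outside the 34, also gave 0 calls in limma. Of 40 regulators of p53, 36 were measured above the brightness level, 0 rose and 0 fell, 2 had an unadjusted p under 0.05 (5.56%, against 4.96% of all probe sets), and the median log2 difference was 0.01, against 0.03 over all probe sets. Both knockdown lines were above every control line for 3 (8.33%, against 12.6%) and below for 4 (11.1%, against 10.2%). The largest of these were Hipk2, a kinase that phosphorylates p53, with 1604 and 1217 in KD1 and KD2, against 1681, 2307 and 1808 in the parental, the empty vector and the EGFP KD line, and Sirt1, a p53 deacetylase, with 1494 and 1289, against 1806, 1844 and 1754. Their log2 differences were -0.45 (SE 0.19) for Hipk2 and -0.38 (SE 0.14) for Sirt1, and the adjusted p in limma was 0.916 for each.

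Of 59 other p53 targets, 43 were measured, 0 rose and 0 fell, 3 had an unadjusted p under 0.05 (6.98%, against 4.96% of all probe sets), and the median was 0.02. Both knockdown lines were above every control line for 7 (16.3% of the 43, against 12.6% of all probe sets) and below for 2 (4.65%, against 10.2%). Ada, adenosine deaminase, had 332 and 377 in KD1 and KD2, against 157, 325 and 146 in the parental, the empty vector and the EGFP KD line, a log2 difference of 0.86 (SE 0.34), with the empty vector line close to KD1. Steap3, a metalloreductase, had 104 and 67.03, against 55.1, 45.6 and 58.8, a log2 difference of 0.66 (SE 0.36). Neither passed (adjusted p = 0.916 in limma for both). Of 40 cell cycle genes that p53 represses through p21 and the DREAM complex, 39 were measured, 0 rose and 0 fell, 1 had an unadjusted p under 0.05 (2.56%, against 4.96% of all probe sets), and the median was -0.01. Both knockdown lines were above every control line for 4 (10.3%, against 12.6%) and below for 3 (7.69%, against 10.2%). The largest of these were Ttk, a spindle checkpoint kinase, with 835 and 839, against 1387, 1073 and 1075 in the parental, the empty vector and the EGFP KD line (log2 difference -0.48, SE 0.17), and Bub1b, a checkpoint protein, with 1859 and 1951, against 1604, 1445 and 1713 (0.27, SE 0.14). The adjusted p in limma was 0.916 for Ttk and for Bub1b.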

How the data were processed

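The authors deposited 1 linear signal intensity per probe set and array. Per the submitters' processing notes, MAS5 made these intensities, in a version not stated there. Each array had a 2% trimmed mean of 500.0 as deposited, so no further scaling was applied. Of 45101 probe sets, 64 controls were dropped. Signals were log2 transformed, and the 22519 probe sets with a mean at or above the median were kept. Of all 45037, 34945 had 1 annotated symbol, 932 several and 9160 none. limma 3.58.1 in R 4.3.3 (lmFit, eBayes with trend and robust) compared 2 knockdown with 3 control lines over all kept probe sets, with 3 residual degrees of freedom, and p-values were adjusted by Benjamini-Hochberg (threshold 0.05). A model of 3 groups gave each knockdown line, which is assumed to vary like the controls. A gene was read by its kept probe set of highest mean signal. Every gene on the list of 34 is named. Of each further list, genes past the threshold were to be named, with the 2 largest log2 differences among those whose groups do not overlap. Gadd45a, Sesn1, Bbc3 and the genes highest in the empty vector line were picked out for that pattern after their values were seen. Tested on simulated data, the fit called more unchanged probe sets than its threshold intends, so its adjusted p-values are too small by that measure. The gene list, the further lists and the tests were chosen with earlier results of these data known. Depth is not defined for arrays, and their number, 5, limits the precision. Promoters are RefSeq's, on GRCm38.p6, and no genome build belongs to the array values.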

Additional observations from a re-analysis of the deposited data

How the results depend on the processing

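The count of p53 pathway genes past the threshold was 0 in limma in every alternative run, for knockdown against control and for each knockdown line. The alternatives took in 3 other scalings (cyclic loess, quantile, median centring), a filter at the 70th percentile (19 genes) or none (31 genes), 32 added to each signal, eBayes with neither trend nor robust, probe sets of a gene averaged, and each line left out. At an unadjusted p under 0.05 these gave 0 genes, and 1 without the parental line, Tigar (log2 difference -0.38, unadjusted p = 0.0402, adjusted p = 0.892 in limma). Without the parental line, 1237 of all 22519 probe sets had an unadjusted p under 0.05 in limma, against 1117 with all lines. Averaging by gene gives no count of all probe sets. All probe sets past the threshold numbered 2, and 1 with median centring, 0 with cyclic loess, 0 without trend and robust, and 0 to 4 over the lines left out. Genes with both knockdown lines above every control line numbered 3 (12.6% of all probe sets), and 0 with median centring (6.02%). They numbered 1 with the mean over probe sets (12.5% of all genes so averaged), 4 with no filter (12.5% of all probe sets) and 4 to 8 over the lines left out (18.5% to 24.5%). Those below numbered 2 (10.2% of all probe sets), and 4 with median centring (17.7%), 3 with quantile normalization (11.3%) and 3 to 7 over the lines left out (16.6% to 20.9%). The other alternatives gave the counts first named. Median centring moved all probe sets by -0.11, and the median of the 24 genes to -0.092, while its distance to the median of all probe sets was -0.01 in both. Of 307 single-gene values over the alternatives, 23 had the sign turned, in 11 genes, and 0 passed the threshold. With median centring these were Ppm1d (-0.064), Btg2 (-0.040), Ckap2 (-0.073), Bbc3 (-0.024), Phlda3 (-0.056) and Ddb2 (-0.036). Ddb2 had -0.017 with quantile normalization and -0.015 with cyclic loess. With the mean over probe sets Ppm1d had -0.072, Ccng1 0.12 and Btg2 -0.033. Over the lines left out, the log2 difference ranged from -0.030 to 0.14 for Ppm1d, -0.17 to 0.38 for Btg2, -0.21 to 0.084 for Mdm2, -0.27 to 0.019 for Cdkn1a, -0.24 to 0.29 for Ccng1, -0.0072 to 0.083 for Ckap2, -0.19 to 0.034 for Aen, -0.13 to 0.25 for Phlda3, -0.26 to 0.41 for Ddb2 and -0.62 to 0.28 for Trp53inp1. The cause was not tested. No paired analysis was possible because no replicate number is shared between the groups, as the numbers of the knockdown lines name their vectors and the control lines carry none. For 7 genes the dim signal of their probe sets sets the limit.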
